A study of Mus musculus with 20 samples.

Results

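Vnn1 and Vnn3 encode the vanins of the mouse, and both were followed across the lungs of dams that had been given carbon black nanoparticles. The pair was chosen because earlier results of these same arrays had shown their values across the dose groups, so their levels and dose differences are given as a description and carry no test. They are 2 of the 19926 genes that could be tested on the array, and each is read by 1 probe, named in the spot files. Vanins are pantetheinases, enzymes held on the outer face of the cell membrane by a lipid anchor. They split pantetheine, a breakdown product of coenzyme A, into pantothenate (vitamin B5), from which coenzyme A is made again, and cysteamine, a small aminothiol that is oxidised on to hypotaurine and taurine. Vnn1 is best known from epithelia such as those of gut, kidney and liver, where it is a target of the fatty acid receptor PPAR alpha and has been linked to oxidative stress and inflammation.

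The 20 lungs came from female C57BL/6BomTac mice, 5 dams in each of 4 groups, all instilled into the trachea while pregnant, at days 7, 10, 15 and 18 of gestation. Controls received Milli Q water alone. Low-, medium- and high-dose dams received Printex 90, a carbon black powder, at 2.75, 13.5 or 67 µg per instillation, a total of 11, 54 or 268 µg. Lungs were taken 26 to 27 days after the exposure. Each dam had its own array, on which lung RNA in Cy5 was hybridised with a universal mouse reference RNA, a commercial pool, in Cy3, and values below are log2 ratios of the lung signal to the reference signal. Dams are named by the animal numbers of the labels.

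Across the 20 arrays, 64.0 to 78.3% of probes had a Cy5 signal well above background, and the number of arrays limits the precision. Markers of alveolar type 2 cells, the surfactant-producing cells of the lung, had a mean log2 ratio of 3.22 to 3.61 in high-dose lungs and 3.19 to 3.84 in control lungs. The background on which the vanins are to be read was thin. At the high dose 38 of 19926 genes were higher than in controls (0.191% called) and 27 were lower (0.136%), by limma with Benjamini-Hochberg adjustment over all genes. These 65 calls became 7 without control dam 18 and 150 without high-dose dam 60, the extremes when each array was left out in turn. The medium dose called 1 gene (0.00502%), Siglech, which fell by 0.46 on the log2 scale (adjusted p = 0.00247), with a mean log2 ratio of 0.26 in medium-dose lungs and 0.72 in controls, and was named after its value was seen. With slide or scan date as a block the medium dose called 0 genes. The low dose called 0 (0%), although at an unadjusted p under 0.05 there were 596 genes higher and 739 lower. At that unadjusted threshold stood 13% of all genes at the high dose, 11.8% at the medium and 6.7% at the low dose. A high-dose, a low-dose and a control array shared each of slides 1 to 5, a medium-dose array was added on slides 1 to 3, and the last 2 medium-dose arrays sat by themselves on slide 6. Where a slide had a control, each group kept 1 position on it, so position and group cannot be told apart.

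The sequences that read the 2 genes are shown as the first 30 bases of each probe of 60 bases, because all values rest on these spots. In the file annotation the Vnn1 probe lies at chr10:23655645-23655704 (mm7), an unbroken stretch as long as the probe. The Vnn3 probe spans chr10:23618542-23620871 (mm7), 2330 bases, so it crosses at least 1 intron. The exon or untranslated region they fall in was not determined here.
Vnn1 probe, bases 1 to 30: ctgtttgtcaacagtggactcgggtgtaag
Vnn3 probe, bases 1 to 30: tgctaagtgggagtcaacttgccctggaaa
Without gaps, the best alignment of the 2 whole probes matched 21 of 60 bases, and their longest shared run was 6 bases.

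The RefSeq promoter table (GRCm38.p6) held Vnn3 and not Vnn1. The 250 bases before the Vnn3 start, chr10:23851212-23851461 on the plus strand, are printed to show the window searched, with the match to the letters TTGCNNCAA in capitals.
Vnn3 promoter: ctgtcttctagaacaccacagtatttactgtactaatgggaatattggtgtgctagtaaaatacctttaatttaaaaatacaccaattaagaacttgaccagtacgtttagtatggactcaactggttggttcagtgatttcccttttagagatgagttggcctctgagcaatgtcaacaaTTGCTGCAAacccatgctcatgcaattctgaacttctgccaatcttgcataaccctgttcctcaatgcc
On both strands, this window held 1 match to the letters TTGCNNCAA, which begins 69 bases before the start (position -69). Those letters were present in 571 of 32851 promoters of the same length (1.74%). The letters AGGTCA of the PPAR site, TGANTCA of AP-1, TTCNNNGAA of STAT, TATAAA of the TATA box and the NF-kB motif were not in the window, and they occurred in 14, 6.75, 7.02, 12.4 and 7.25% of promoters, in that order. These are matches of letters and no measurement of binding.

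Vnn1 was higher in the lungs of the high-dose dams than in every control. Its log2 ratios were 2.00, 1.72, 2.02, 1.82 and 1.79 in control dams 4, 7, 14, 15 and 18. They were 2.01, 1.95, 2.14, 2.04 and 1.88 in low-dose dams 25, 27, 28, 31 and 36, so these groups overlapped. Medium-dose dams 46, 47, 48, 49 and 50 had 1.75, 2.16, 2.09, 2.34 and 2.14. They too overlapped with the controls, through dam 46. High-dose dams 60, 62, 63, 64 and 65 had 2.11, 3.53, 3.62, 2.86 and 2.90. The high-dose dams thus split into dams 62 and 63 at the top, dams 64 and 65 below them, and dam 60, which lay just above the highest control and below the highest low- and medium-dose dams. Such non-overlap, every high-dose dam above every control, was met by 238 of the 19926 genes (1.19%).

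The control dams averaged a Vnn1 log2 ratio of 1.87 ± 0.134, the low-dose dams 2.00 ± 0.0957, the medium-dose dams 2.10 ± 0.217 and the high-dose dams 3.00 ± 0.609 (SD, n = 5 each). The high dose exceeded control by 1.14 (SE 0.279), which is 2.20-fold. The medium dose exceeded control by 0.23 (SE 0.114) and the low dose by 0.13 (SE 0.0736), each with overlapping dams. In descending order of the means the levels were high, medium, low and control. Medium and low lay 0.09 apart against a within-group SD of 0.167, so these neighbours did not differ beyond their spread. Their order was also not kept: medium minus control was 0.0782 with slide as a block and 0.13 without the 2 arrays of slide 6, dams 49 and 50, against 0.135 for low minus control in both. Low lay above control by slightly more than the within-group SD of 0.116, with 2 of 5 low-dose dams above all controls. High lay 0.91 above medium, with 4 of 5 high-dose dams above all medium-dose dams and dam 60 below some of them. In whole lung RNA, a change in the number of cells of a type and a change in RNA per cell cannot be told apart.

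Without dam 60 the Vnn1 difference from control was 1.36 (2.56-fold, 4 dams against 5), and the SD of the high-dose dams was 0.404, still above the 0.134 of controls. Compared with the control on its own slide, Vnn1 was higher in the high-dose dam on 5 of 5 slides. The differences were 0.11 for dam 60, 1.82 for dam 62, 1.602 for dam 63, 1.03 for dam 64 and 1.11 for dam 65. The low-dose dam was above its slide's control by 0.00121 to 0.24 on 5 of 5 slides, and the medium-dose dam was above it on 2 of 3 slides. The value for the low dose was -0.01 when no spot was left out of the background estimate, against 0.13 as reported.

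Vnn3 was also higher in the high-dose lungs on average, with 1 dam as the exception. Its log2 ratios were 1.91, 1.71, 1.83, 1.26 and 1.63 in control dams 4, 7, 14, 15 and 18. Low-dose dams 25, 27, 28, 31 and 36 had 1.87, 1.55, 1.71, 1.59 and 1.74. Medium-dose dams 46, 47, 48, 49 and 50 had 1.70, 1.86, 1.56, 1.75 and 1.45. These 3 groups lay within 1 range, with control dam 15 at the bottom. High-dose dams 60, 62, 63, 64 and 65 had 1.64, 2.23, 2.46, 2.24 and 2.11. Dams 62 to 65 lay above all 15 dams of the other groups, whereas dam 60 lay inside the control range. Dam 63 was the highest for both vanins and dam 60 the lowest of the high dose for both.

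For Vnn3 the control dams averaged 1.67 ± 0.252, the low-dose dams 1.69 ± 0.127, the medium-dose dams 1.66 ± 0.161 and the high-dose dams 2.14 ± 0.305 (SD, n = 5 each). The high dose exceeded control by 0.47 (SE 0.177, 1.38-fold). The low dose differed from control by 0.02 and the medium dose by -0.01, both far inside the spread between dams. The order was high, low, control and medium, and the last 3 did not differ beyond their spread. The high-dose dam was above its slide's control on 4 of 5 slides, with differences of -0.27 for dam 60, 0.52 for dam 62, 0.63 for dam 63, 0.98 for dam 64 and 0.48 for dam 65. Without dam 60 the difference from control was 0.59 (1.505-fold), and without control dam 15 it was 0.36.

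**Figure D1:**
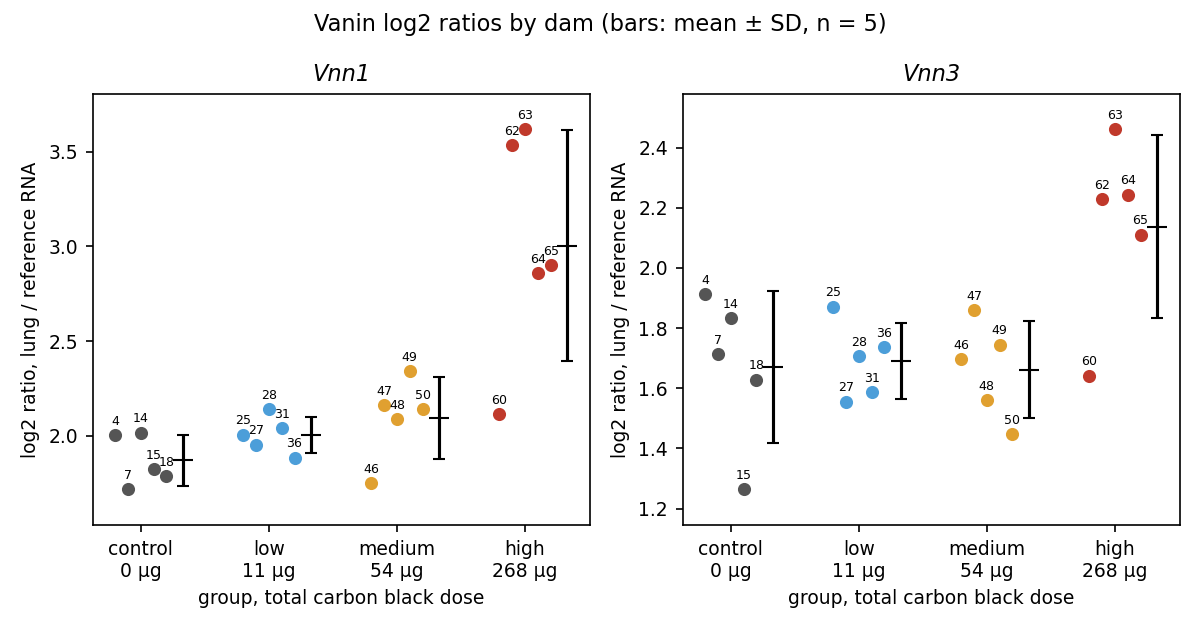
Log2 ratio of lung over reference RNA for Vnn1 (left) and Vnn3 (right), 1 point per dam with its number, by dose group, with the mean ± SD of 5 dams beside each group. High-dose dams 62 to 65 stand above all other dams for both genes, and dam 60 has 2.11 for Vnn1 and 1.64 for Vnn3.

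The spot signals show which channel moved. Vnn1 Cy5 medians, in scanner intensity units with background not subtracted, were 1237 to 1572.5 on control arrays, 1080 to 1576 on low-dose arrays and 1082.5 to 1805 on medium-dose arrays. In high-dose dams 60, 62, 63, 64 and 65 they were 1267, 5246, 4774, 2786 and 2582.5. The Cy3 signal of the reference was 152 to 190.5 on control arrays, 134 to 187 on low-dose, 141 to 203 on medium-dose and 159 to 189 on high-dose arrays. The 4 high ratios of Vnn1 therefore lay in the lung channel, with the reference channel within 1 range. No spot of either vanin was saturated or marked as an outlier.

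Vnn3 gave dimmer spots. Its Cy5 medians were 394 to 558 on control arrays, 386 to 487 on low-dose arrays, 298 to 510 on medium-dose arrays, and 360.5, 916, 927, 683 and 633.5 in high-dose dams 60, 62, 63, 64 and 65. Cy5 was well above background on all 20 arrays, at local backgrounds of 76 to 89 units. The Vnn3 reference spot was dim, and its Cy3 signal was well above background on 4 of 5 control, 3 low-dose, 1 medium-dose and 4 high-dose arrays. That signal was 44, 51, 50, 92 and 44 units in control dams 4, 7, 14, 15 and 18. It was 44 to 69 on low-dose and 53.5 to 62 on medium-dose arrays, and 55, 77, 75, 62 and 64 in high-dose dams 60, 62, 63, 64 and 65. Control dam 15 aside, the reference spot was thus brighter on each high-dose array than on the controls. The cause was not tested. Control dam 15 had the highest Cy3 signal of all, 92 units, and also the highest control Cy5 signal, 558, so its low ratio of 1.26 came with a bright reference spot and not with a dim lung spot.

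The size of the Vnn3 difference varied with the way the ratio was formed. With the lung channel alone, quantile normalised, high-dose lungs exceeded controls by 0.67 for Vnn3 and by 1.23 for Vnn1. The authors' deposited log2 value table gave high-dose Vnn1 ratios of 1.98, 3.37, 3.38, 2.66 and 2.71, against 1.90, 1.59, 1.82, 1.71 and 1.65 in controls, a difference of 1.08. For Vnn3 it gave a difference of 0.33. The scanner software's own ratio gave 0.773 for Vnn3 at the high dose, 0.683 at the medium and 0.455 at the low dose, so under that setting all 3 doses lay above control.

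**Figure D2:**
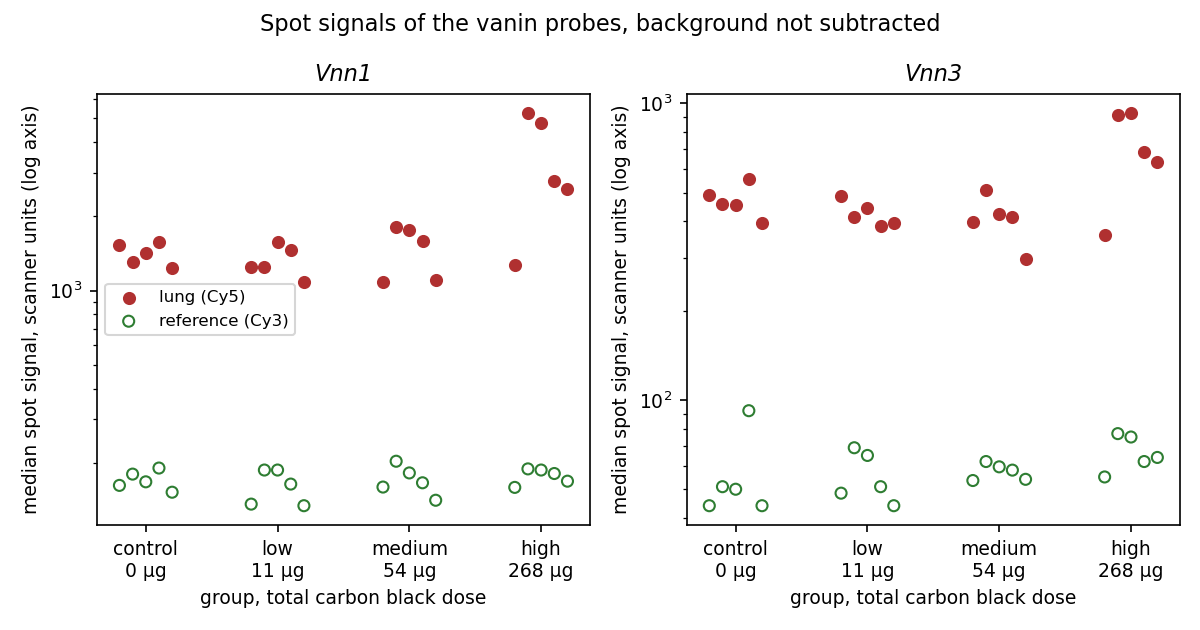
Median spot signals of the Vnn1 (left) and Vnn3 (right) probes on a log axis, with lung RNA (Cy5) as filled and reference RNA (Cy3) as open circles, 1 of each per dam, ordered by dam number within a group. The Cy5 signals of high-dose dams 62 to 65 exceed those of all other dams while Cy3 keeps to 134 to 203 units for Vnn1, and control dam 15 has the brightest Vnn3 reference spot, 92 units.

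The 2 vanins varied together across dams mainly through the high dose. Over 20 arrays the log2 ratios of Vnn1 and Vnn3 had a Pearson r of 0.83 and a Spearman rho of 0.54. Among the 19925 other genes, Vnn3 ranked 32nd by r with Vnn1, and Vnn1 ranked 17th by r with Vnn3. The r was 0.875 after each slide's mean was removed, 0.641 for deviations from the group means, and 0.681 without the 2 dams farthest from the Vnn1 median. Over the 15 control, low- and medium-dose arrays it was 0.193. These arrays share the reference RNA and, in part, slides, and the r values are descriptions. With the scanner software's ratio r was 0.256, and with the lung channel alone it was 0.917.

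**Figure D3:**
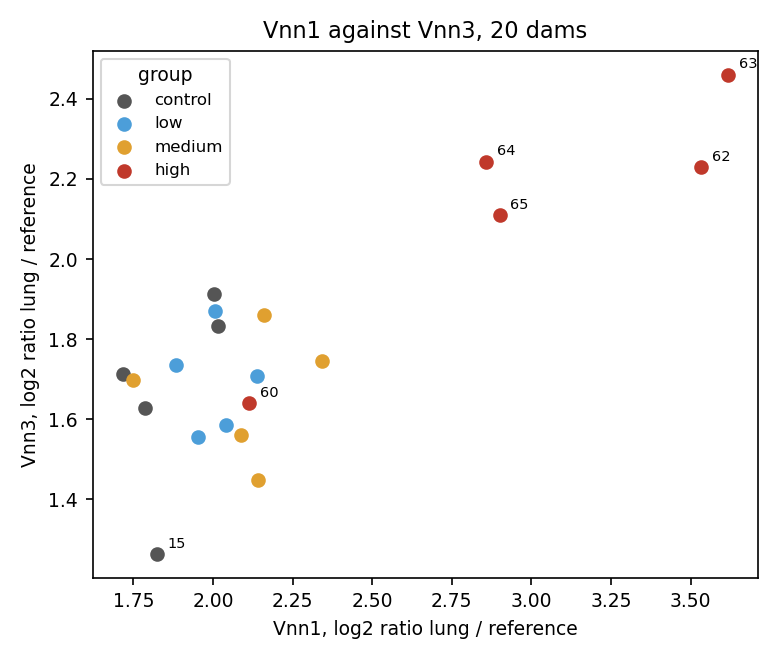
Log2 ratio of Vnn3 against that of Vnn1, 1 point per dam coloured by dose group, with the high-dose dams and control dam 15 numbered. Dams 62 to 65 lie apart at the upper right, and the other 16 dams, dam 60 among them, form 1 cloud.

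Genes were ranked by how closely their log2 ratios followed those of each vanin over the 20 arrays. For Vnn1 the 10 genes of highest r, from 0.891 to 0.956, were Lemd1, Ly6f, Mmp12, Csf2, Lcn2, Noxo1, Cxcl5, Il1rn, Trem2 and Saa3. Mmp12 is macrophage elastase, Csf2 the growth factor GM-CSF, Lcn2 a protein that binds bacterial siderophores, and Noxo1 an organising subunit of an epithelial NADPH oxidase. Cxcl5 is a chemokine for neutrophils, Il1rn the antagonist of the interleukin-1 receptor, Trem2 a receptor of macrophages and Saa3 an acute phase protein. They were chosen for this likeness, so their dose pattern follows from Vnn1's own. Lemd1 was not well above background on any control, low- or medium-dose array, so its r of 0.956 rests on 4 high-dose arrays.

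The values of these genes show the same dams in front. Cxcl5 had log2 ratios of -1.56, 1.00, 1.07, -1.38 and -0.40 in high-dose dams 60, 62, 63, 64 and 65, against -3.31, -3.00, -3.34, -3.64 and -3.26 in control dams 4, 7, 14, 15 and 18. Cxcl5 of dam 60 thus lay above all controls, unlike its Vnn3. Mmp12 had 0.07, 1.57, 1.52, 0.34 and 0.66 in the same high-dose dams, against -0.18 to -0.03 in controls. Its dam 60 lay only slightly above the highest control, as Vnn1's did. Lcn2 had 1.83, 3.30, 3.50, 2.67 and 2.77 in the high-dose dams, against 1.31 to 2.02 in controls. Dam 63 was the highest in 8 of the 10 genes and dam 62 in the other 2, and dam 60 was below the highest control in 4 of 10.

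The genes most like Vnn3 overlapped with that set in 3 of 10. They were Noxa1, Slc26a4, Tmem176b, Lcn2, Osmr, Ctsk, Noxo1, Ccl8, Lemd1 and Steap4, with r from 0.846 to 0.931, and Lemd1, Lcn2 and Noxo1 stood in both sets. Noxa1 activates the NADPH oxidase that Noxo1 organises. Slc26a4 is pendrin, an anion exchanger, Osmr a receptor subunit for oncostatin M, Ctsk the protease cathepsin K, Ccl8 a chemokine and Steap4 a metalloreductase. Noxa1 had 1.19, 1.98, 2.27, 1.84 and 1.59 in high-dose dams 60, 62, 63, 64 and 65, against 1.37, 1.18, 1.16, 0.85 and 1.17 in control dams 4, 7, 14, 15 and 18. As for Vnn3, its dam 60 lay inside the control range and its dam 15 was the lowest control. The 10 genes were chosen for their likeness to Vnn3 over these same arrays, so such shared places of single dams follow from that choice.

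Slc26a4 had 3.51, 4.74, 5.08, 3.71 and 4.27 in the high-dose dams, against 3.61, 3.04, 2.95, 1.07 and 2.88 in controls. Its r with Vnn3 was 0.901 over the 15 dams outside the high dose. Leaving out Lemd1, which was well above background on none of those 15 arrays, r over them ran from 0.524 to 0.901 for the 9 other genes most like Vnn3 and from -0.432 to 0.455 for the 9 most like Vnn1. Among those 15 dams, control dam 15 was the lowest for Vnn3, Noxa1 and Slc26a4. The difference between these 2 ranges was not tested. Dam 60 was below the highest control in 8 of the 10 genes most like Vnn3, which were chosen for following it over these same dams.

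By deviations from the group means, the 5 genes most like Vnn1 were Ly6f, Mmp12, Lcn2, Lemd1 and Csf2, with r from 0.851 to 0.892. For Vnn3 they were Noxa1, Tmem176b, Slc26a4, Lcn2 and Osmr, with r from 0.796 to 0.866. Lcn2 was the 1 gene in both. Removing the group means leaves the wider spread of the high-dose dams, whose Vnn1 SD was 0.609 against 0.134 in controls. Over the 15 dams outside the high dose, r with Vnn1 was 0.312 for Ly6f, 0.443 for Mmp12, 0.167 for Lcn2 and 0.379 for Csf2. Lemd1 was well above background on none of those arrays. For the 5 genes of Vnn3, r with Vnn3 over those dams was 0.608 to 0.901. At the other end, among genes with a symbol, r with Vnn1 was lowest for Cst8, Best3, Hdac5, She and Tril, from -0.852 to -0.792. For Vnn3 it was lowest for Reck, a membrane inhibitor of matrix metalloproteases, Nuak1, Bex1, Nrn1 and Zbtb10, from -0.819 to -0.78, and 2 features without a symbol, 1 of them of lower r than Reck, are not named. Of these, Cst8 had a mean log2 ratio of 2.76 at the high dose and 3.70 in controls, and Reck 2.21 at the high dose and 2.50 in controls.

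**Figure D4:**
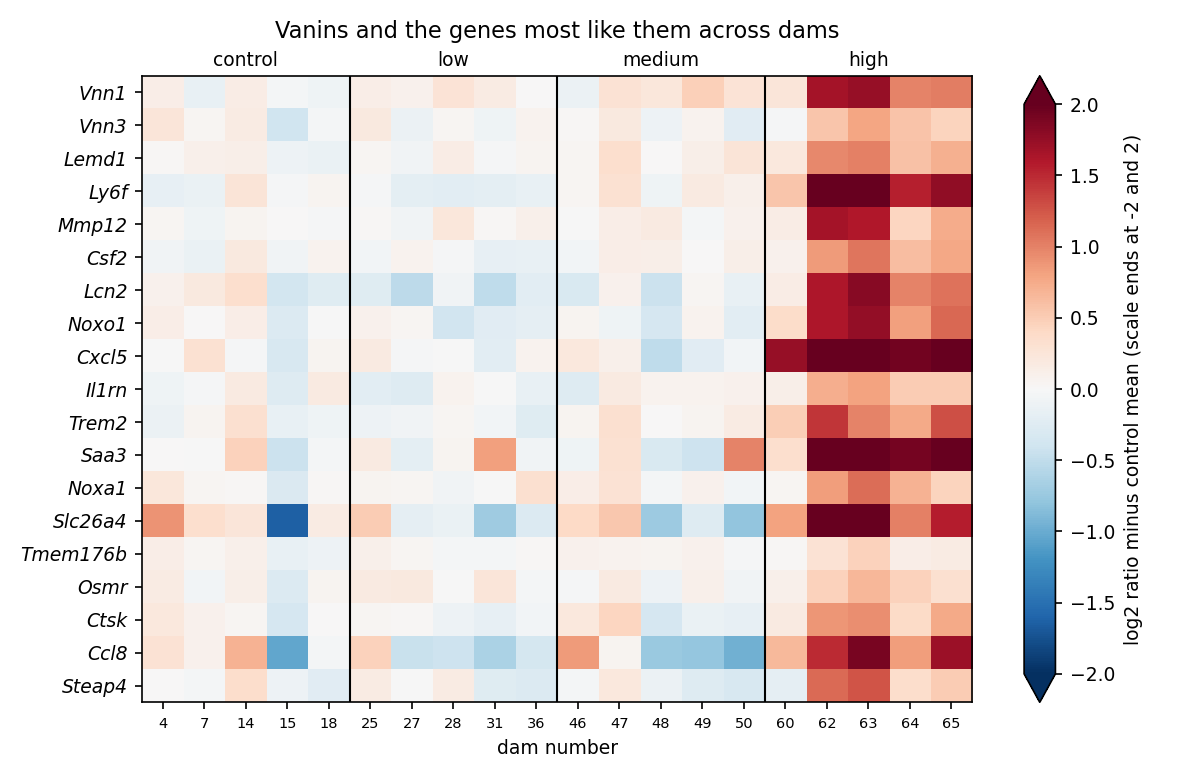
Log2 ratio minus the control mean of the gene, for Vnn1, Vnn3 and the genes of highest r with either (rows), in each dam (columns, grouped by dose), on a colour scale that ends at -2 and 2. Dams 62 to 65 are above the control mean in every row, while dam 60 is near it for both vanins and at 1.75 for Cxcl5.

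Marker genes of lung cell types were set beside the vanins, because whole lung was measured. Of 16 lists, 110 markers were measured, a gene in 2 lists counted in each, and 3 genes were called at the high dose, where 0.326% of all genes were called in either direction. Siglecf, a lectin found on alveolar macrophages and on eosinophils, fell by 0.81 (adjusted p = 0.0318), with 1.84 ± 0.322 at the high dose and 2.64 ± 0.254 in controls. Klra8, a receptor of natural killer cells, fell by 0.77 (adjusted p = 0.0244), with 2.45 ± 0.335 at the high dose and 3.22 ± 0.195 in controls. Jchain, the joining chain of secreted antibodies, rose by 1.78 (adjusted p = 0.0368), with -0.08 ± 0.586 at the high dose and -1.86 ± 0.769 in controls. These are limma p-values with Benjamini-Hochberg adjustment, with group SDs over n = 5. All 3 calls were lost without any one of control dams 15 and 18 and high-dose dams 62, 63 and 65, and with only the 2 groups fitted. Jchain was also lost without control dam 7 or 14 or low-dose dam 25 or 28, and Siglecf without control dam 14.

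Over the 20 dams, 3 list means moved with the vanins more than the rest, and were singled out after their values were seen. The monocyte and interstitial macrophage list, 9 of 10 markers measured, had an r of 0.72 with Vnn1 and 0.74 with Vnn3. Its mean log2 ratio was 1.49 to 2.01 in control dams, 1.44 to 1.70 in low-dose dams, 1.45 to 1.77 in medium-dose dams and 1.82 to 2.20 in high-dose dams. None of the 9 was called at the high dose by limma, and 6 had an unadjusted p under 0.05, against 13% of all genes. The natural killer cell list, 6 of 6 measured, had an r of -0.63 with Vnn1 and -0.55 with Vnn3, with means of 1.35 to 1.83 at the high dose and 1.78 to 2.11 in controls. The B and plasma cell list, 8 of 8 measured, had an r of 0.56 with Vnn1 and 0.46 with Vnn3, with means of -0.48 to 0.57 at the high dose and -0.49 to -0.12 in controls. The other 13 lists had r from -0.25 to 0.16 with Vnn1 and from -0.21 to 0.42 with Vnn3. In the neutrophil list, Ly6g and Elane were not measured, and its r was -0.11 with Vnn1 and 0.12 with Vnn3. Its 10 measured markers had a median difference from control of -0.25 at the high dose, with 1 of 10 above 0. None was called there, and 2 had an unadjusted p under 0.05 by limma, beside 13% of all genes. The median was -0.37 at the medium and -0.48 at the low dose. The part of these cells in the vanin differences was not tested.

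The genes around the vanin reaction were taken from 4 lists, of which 91 members were measured, and 1 passed the limma test at the high dose. At that dose 13 of the 91 had an unadjusted p under 0.05, beside 13% of all genes. At the medium and low dose 0 of 91 passed, while 12 and 5 had an unadjusted p under 0.05, beside 11.8 and 6.7% of all genes, so these counts are near the background. The lists were drawn up with earlier results of these arrays known. Their counts are to be read against the 0.191% of all genes called higher and the 0.136% called lower at the high dose, and those at an unadjusted p under 0.05 against 13%.

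The product side of the reaction, cysteamine, cysteine and taurine, held the 1 called gene, Slc7a11, the cystine importer of the cell membrane. Slc7a11 had log2 ratios of -0.72, -0.25, -0.46, -0.76 and -0.72 in high-dose dams 60, 62, 63, 64 and 65, against -0.98, -1.05, -1.28, -1.16 and -0.92 in control dams 4, 7, 14, 15 and 18. The groups did not overlap, and dams 62 and 63 were again highest. The rise was 0.49 (SE 0.0988, adjusted p = 0.034), and the medium and low dose differed from control by 0.01 each. Its spot was well above background on 4 control, 1 low-dose, 0 medium-dose and 4 high-dose arrays of 5 each, so the low- and medium-dose differences rest on spots mostly not above it. Its 3 other probes gave differences of 0.10, -0.06 and 0.18, the last of them well above background on 2 arrays only, and the mean over its kept probes differed by 0.18 (adjusted p = 0.153). The call was also lost without any one of control dams 7, 14, 15 and 18 and high-dose dams 62, 63 and 65, with adjusted p from 0.0517 to 0.101.

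Of the other genes in that list, 13 did not pass the test, and the list's median difference was 0.00436 at the high dose, against -0.00158 over all genes. An unadjusted p under 0.05 was found for 4 of the 14 measured, Slc7a11 among them, beside 13% of all genes. Ado, the dioxygenase that oxidises cysteamine to hypotaurine, had a mean of -0.37 ± 0.063 at the high dose and -0.53 ± 0.0566 in controls, a difference of 0.16 (adjusted p = 0.118). Its medium- and low-dose means, -0.33 ± 0.0454 and -0.33 ± 0.0497, were above control by 0.20 each, with adjusted p of 0.287 and 0.522. All 15 carbon black dams had a higher Ado ratio than every control, a pattern met by 9 of the 19926 genes tested (0.0452%). The lowest Ado ratio in them was -0.46 in dam 60 and the highest control was -0.47 in dam 4. Ado was named for its small p at the high dose over these same arrays, so that share is a description and no test. Cbs, which begins the synthesis of cysteine from homocysteine, differed by -0.15 (adjusted p = 0.293), and Ethe1, a mitochondrial sulphur dioxygenase, by -0.13 (adjusted p = 0.371).

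Coenzyme A is both the source of pantetheine and the end of the pantothenate route. All 19 listed genes of its synthesis, transport and breakdown were measured, and 0 were called at the high dose by limma. An unadjusted p under 0.05 was found for 2, beside 13% of all genes. The median difference was 0.04, with 10 of 19 above 0. Pank3, a pantothenate kinase, differed by 0.27 (adjusted p = 0.364) and its relative Pank4 by -0.13 (adjusted p = 0.324). Slc25a42, a mitochondrial carrier of coenzyme A, differed by 0.11 (adjusted p = 0.431) and Aasdhppt, which transfers the phosphopantetheine arm to proteins, by 0.10 (adjusted p = 0.483).

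Glutathione, whose stores cysteamine and cystine are known to affect, had 20 of 20 listed genes measured and 0 called at the high dose by limma. An unadjusted p under 0.05 was found for 2, beside 13% of all genes. The median difference was 0.02, with 10 of 20 above 0. Gclc, the catalytic subunit of the enzyme that limits glutathione synthesis, had 2.26 ± 0.405 at the high dose and 1.83 ± 0.143 in controls, a difference of 0.43 (adjusted p = 0.245). Lap3, a leucyl aminopeptidase, differed by 0.17 (adjusted p = 0.383), Ggt5, a gamma-glutamyl transferase, by 0.11 (adjusted p = 0.737) and Ggct by 0.05 (adjusted p = 0.762).

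PPAR receptors, their partners and fatty acid oxidation targets were listed because Vnn1 is a PPAR alpha target in liver. All 38 were measured, 0 were called at the high dose by limma and 5 had an unadjusted p under 0.05. That count is near the background of 13% of all genes. The median difference was -0.04, with 14 of 38 above 0. Hadha, of mitochondrial fatty acid oxidation, differed by -0.13 (adjusted p = 0.298), Ucp2 by -0.15 (adjusted p = 0.316) and Ucp3 by -0.17 (adjusted p = 0.328). Fabp1, a fatty acid binding protein and PPAR alpha target of liver, had 3.65 ± 0.894 at the high dose and 4.36 ± 0.171 in controls, a difference of -0.70 (adjusted p = 0.358). The list means of these 38 genes had an r of -0.25 with Vnn1 and 0.07 with Vnn3 over the 20 dams.

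**Figure D5:**
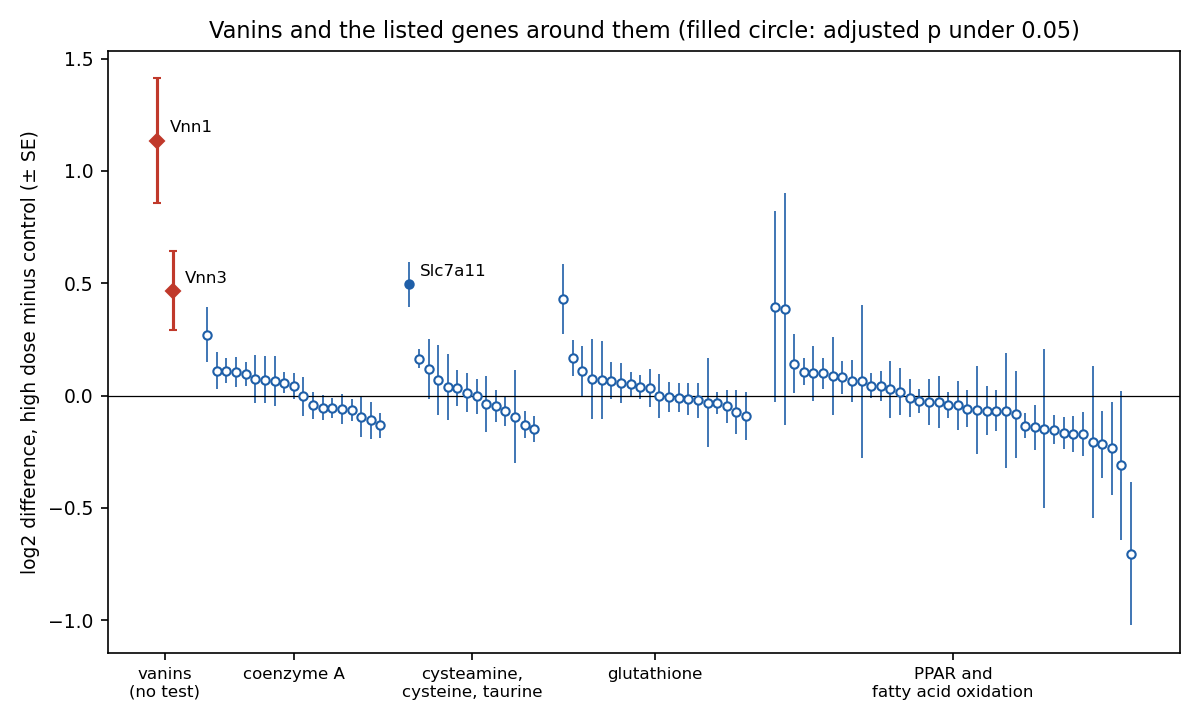
Log2 difference of high-dose minus control lungs with its SE, for the vanins (red diamonds, no test, SE from the spread of the 2 groups) and for each measured gene of the 4 lists (circles, SE from the limma fit), sorted within a list. Vnn1 lies at 1.14 and Vnn3 at 0.47, and Slc7a11 at 0.49 is the 1 filled circle, a gene with an adjusted p under 0.05.

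The genes next to the vanins on chromosome 10 were examined last. Vnn3 and Vnn1 are neighbours in the RefSeq gene table. Of the 4 genes beyond Vnn3, the others are small nucleolar RNAs with no probe matched, and Slc18b1, a vesicular amine transporter, differed between high dose and control by 0.12 (limma adjusted p = 0.516), with an r of 0.05 with Vnn1. Of the 4 genes beyond Vnn1, all trace amine-associated receptors, Taar2 differed by -0.05 (adjusted p = 0.855) and Taar4 by -0.01 (adjusted p = 0.983), each well above background on 14 of 20 arrays. Taar1 was well above background on 0 of 20 arrays and was not tested. Of the 3 neighbours that could be tested, none was called at the high dose, where 0.326% of all genes were called. With so low a share, the lack of a call among 3 genes says little about them. Their r with Vnn1 ran from -0.12 to 0.05.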

How the data were processed

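Per the file headers, spots were read with Agilent Feature Extraction 9.5.1.1 (18 arrays, build mm7) or 10.1.1.1 (2 arrays, mm8). The authors deposited, for each array, Cy5 and Cy3 median intensity and local background, a log10 dye ratio, and a value table of log2 ratios (normalisation not given in the sources used here). No dyes were swapped, so dye effects are shared by all arrays.

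Here, median intensities were corrected with limma 3.58.1 (R 4.3.3) by normexp (offset 50), its parameters estimated without the 1 lowest spot per channel, then normalised by loess within arrays. The lowest Cy3 spot of 1 low-dose array stood at -34530 units after background subtraction. Outlier spots were removed, the spots of a probe averaged, and a probe kept if its Cy5 was well above background on at least 3 of 5 arrays of a group. The brightest probe per gene was used, with values on at least 16 arrays. Of 41174 probes, 22951 were named by accession, 6659 by symbol and 3109 by synonym through the RefSeq table. One limma fit over all 20 arrays, each a separate dam, gave two-sided p-values, adjusted by Benjamini-Hochberg at 0.05. Correlations are over arrays.

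The members and the gene lists were chosen with earlier results of these data known. Genes named are the members, the 10 genes with a symbol of highest and the 5 of lowest r with each, the 5 of highest r of deviations from group means, 4 neighbours on each side, and in each pathway list the called genes and the 4 of smallest p at the high dose; other genes are introduced as chosen after their values were seen. Alternatives covered background, ratio source, normalisation, dim-probe filter, outlier spots, probe choice, slide, scan date, the arrays in the fit and each array left out. The limma fit was tested on simulated log2 ratios with known differences planted at the high dose. The steps before the fit and the correlations were not tested in this way.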

Additional observations from a re-analysis of the deposited data

Results flagged for a closer look

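For the vanins, the genes most like them and Slc7a11, 80 sets of 5 dams were examined for a dam far from the rest of its group by Dixon's ratio, and 3 exceeded the critical value of 0.71. Chance gives about 1 in 20. Il1rn had a log2 ratio of 0.1287 in medium-dose dam 46, and the next lowest dam of that group had 0.45. Slc26a4 had a log2 ratio of 1.074 in control dam 15, and the next lowest control had 2.88. Ccl8 had a log2 ratio of 1.996 in low-dose dam 25, and the next highest low-dose dam had 1.18. No group of Vnn1 or Vnn3 values exceeded it.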

How the results depend on the processing

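The vanin differences at the high dose kept their sign in all 14 alternatives and with each of the 20 arrays left out. Many of these settings could not alter them. The dim-probe filters, outlier spots kept, the mean of probes, and slide or scan date as a block left 1.14 for Vnn1 and 0.466 for Vnn3. So did leaving out any low- or medium-dose array, or the slide without controls. The kept sign is thus informative only for the other alternatives and for control or high-dose arrays left out. Vnn1 ranged from 1.01 (scaling between arrays) to 1.23 (Feature Extraction log ratio) and, with 1 array left out, from 0.982 (without dam 63) to 1.36 (without dam 60). Vnn3 ranged from 0.33 to 0.773, and from 0.365 to 0.59. With single arrays left out, Vnn1 ranged from 0.165 to 0.314 at the medium and from 0.0967 to 0.171 at the low dose, and Vnn3 from -0.109 to 0.0525 and from -0.0808 to 0.0811. With the Feature Extraction ratio Vnn3 was 0.773, 0.683 and 0.455 at the high, medium and low dose. The correlation of the vanins, 0.83, was 0.719 without background correction, 0.256 with the Feature Extraction ratio, 0.664 in the deposited table and 0.917 with Cy5 alone, and 0.751 to 0.852 with 1 array left out. The cause of these changes was not tested.

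The 65 genes called at the high dose became 15 with no spot left out of the background estimate, 184 without background correction, 9 with the Feature Extraction ratio, 207 in the deposited table, 43 by median centring, 139 by scaling between arrays, 19 with Cy5 alone, 134 with slide as a block and 1 with only the 2 groups fitted, which leaves fewer arrays to estimate the spread. With 1 array left out they were 7 to 150: 150 without high-dose dam 60, 9 without 62, 17 without 63 and 20 without 65; 32, 9 and 7 without control dams 7, 15 and 18; and 43 without low-dose dam 25 or 28. The 1 gene called at the medium dose became 5 without background correction, 3 by scaling, and 0 with no spot left out, the Feature Extraction ratio, Cy5 alone, slide or scan date as a block, or 2 groups fitted, and was 1 to 5 with 1 array left out (2 without control dam 4, 5 without dam 46). The low dose called 1 without background correction and in the deposited table, and 0 with each array left out. The 4 listed genes called became 8 without background correction and in the deposited table, 9 by scaling, 7 with slide as a block, 1 with Cy5 alone, and 0 with no spot left out, the Feature Extraction ratio or 2 groups fitted. They were 0 to 7 with 1 array left out (7 without dam 60, 2 without control dam 7 or 14, 0 without control dam 15 or 18 or high-dose dam 62, 63 or 65). The Slc7a11 difference kept its sign in 14 alternatives and passed the threshold in 8 of them. Over all 14 it was 0.18 to 1.295 (adjusted p 0.0032 to 0.885). Some of them, such as slide or scan date as a block, left the difference at 0.4949 and could change only its p-value.

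No animal number is shared between groups, so no block on it could be fitted; slides, which groups share, served as the block, and Vnn1 at the medium dose was then 0.0782, against 0.227. The dim Vnn3 reference spot, well above background on 12 of 20 arrays, limits the Vnn3 ratios.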
